A study of Mus musculus with 12 samples.

Results

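The expression of 9 genes of apoptosis and necroptosis was followed in mouse kidneys 24 h after an ischemic episode of 20 min and in control kidneys. They were taken by symbol from a table of 23420 genes, and all 9 were present: the antiapoptotic genes Bcl2l1 and Mcl1, the pore-forming effectors Bax and Bak1, the activator Bid, the initiator caspase gene Casp8, and the necroptosis genes Ripk1, Ripk3 and Mlkl. RNA was sequenced from 12 kidneys of male C57BL/6J mice, 8 to 15 weeks old, with 4 kidneys in each of 3 groups and 1 sample per kidney. Control kidneys were normal kidneys removed by nephrectomy, although their labels carry the same ischemia protocol as the others. The 8 ischemic kidneys came from mice clamped with a remotely operated occluder, either under ketamine and xylazine or conscious apart from a short isoflurane anaesthesia, and the contralateral kidney was removed in this model. The labels contradict each other on which set was anaesthetised: the 4 kidneys called set A here have anaesthesia in their titles and conscious in their group field, and the 4 called set B have the reverse. The names A and B are therefore neutral, and no difference between them is assigned to anaesthesia here.

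The BCL2 family controls the integrity of the outer mitochondrial membrane. BAX and BAK1 open pores in it and release cytochrome c, whereas BCL-XL, the main product of Bcl2l1, and MCL1 hold them in check. BID, once cleaved by caspase 8, carries the signal of death receptors to the mitochondria. Caspase 8 also cleaves RIPK1 and RIPK3, and when it is inactive these kinases can assemble and phosphorylate MLKL, which then ruptures the plasma membrane in necroptosis. Both routes are well known in ischemic injury of the renal tubule, and in both much of the control acts on the proteins, which were not measured here.

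Bcl2l1 and Mcl1 rose in both ischemic sets, and Bak1, at 0 in all controls, was called higher in both. No member was called lower in either set by edgeR, DESeq2 or limma-trend, although Bid in set A had an unadjusted p of 0.0236 in edgeR, and Ripk3 had no count in any kidney. Of the 9 genes, 8 entered the test, and 3 were called higher in set A by the quasi-likelihood test of edgeR, with the threshold at an adjusted p of 0.05. Among the 11664 genes tested in that comparison, 10.5% were called higher, 11.7% lower and 22.3% in either direction. The same 3 members were called higher in set B, where 10.9% of all genes were called higher, 11.9% lower and 22.8% in either direction. Bak1 entered the test through the ischemic kidneys alone, and Mlkl, with counts in 1 control, did so in the main, so the count of 3 and the medians that follow are descriptions and carry no further weight. The median log2 fold change of the 8 members tested was 0.85 for set A and 0.85 for set B, against -0.02 and -0.02 over all genes tested. Both medians were still 0.85 with genes at 0 throughout a group set to their bound, and over the 6 members other than Bak1 and Mlkl they were 0.70 and 0.58.

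The 250 bases before the transcription start are shown for 4 members: the pair that rose together, Bcl2l1 and Mcl1, and, beside them, Bax and Mlkl, which were higher on average in both sets without passing the threshold. The sequences are from RefSeq on GRCm38.p6, whose coordinates are those of mm10, the build of the files. They read 5′ to 3′ on the strand of the gene and overlap no GENCODE exon. Capitals mark matches, on either strand, to any of 8 motifs: the TATA box TATAAA, the CCAAT box CCAAT, the GC box GGGCGG, the AP-1 motif TGANTCA, the STAT motif TTCNNNGAA, the core of the hypoxia response element ACGTG, an NF-kB motif with 3 free bases in its middle and the cyclic AMP response half-site TGACG.
Bcl2l1, chr2:152831729-152831978, minus strand, its outermost start: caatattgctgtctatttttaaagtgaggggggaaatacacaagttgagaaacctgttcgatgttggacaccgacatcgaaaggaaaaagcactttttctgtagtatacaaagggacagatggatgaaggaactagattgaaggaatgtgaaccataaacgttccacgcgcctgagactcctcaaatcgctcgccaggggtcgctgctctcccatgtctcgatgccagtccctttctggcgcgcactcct
Mcl1, chr3:95658471-95658720, plus strand: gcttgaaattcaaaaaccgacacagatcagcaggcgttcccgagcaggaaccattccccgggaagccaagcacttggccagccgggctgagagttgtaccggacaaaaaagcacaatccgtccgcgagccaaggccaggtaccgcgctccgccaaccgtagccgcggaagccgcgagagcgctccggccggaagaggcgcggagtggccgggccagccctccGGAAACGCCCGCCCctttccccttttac
Bax, chr7:45466899-45467148, minus strand: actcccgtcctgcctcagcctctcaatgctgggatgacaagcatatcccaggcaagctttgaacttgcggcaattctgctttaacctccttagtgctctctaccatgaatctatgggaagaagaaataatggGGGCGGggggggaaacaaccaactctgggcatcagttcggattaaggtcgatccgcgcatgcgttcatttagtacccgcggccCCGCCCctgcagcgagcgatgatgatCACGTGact
Mlkl, chr8:111338206-111338455, minus strand: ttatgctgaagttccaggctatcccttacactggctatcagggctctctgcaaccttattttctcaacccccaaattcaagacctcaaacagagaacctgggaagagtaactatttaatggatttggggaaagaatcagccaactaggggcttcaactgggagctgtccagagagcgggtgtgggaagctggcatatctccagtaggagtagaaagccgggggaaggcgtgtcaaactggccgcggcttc
The Bcl2l1 and Mlkl windows shown held no match to these motifs. Of 2 further RefSeq starts of Bcl2l1, whose windows lie within its exons and are not shown, 1 had an NF-kB match beginning 218 bases before it and the other had no match. Mcl1 held 1 NF-kB match, beginning 28 bases before the start, that overlapped 1 GC box beginning 20 bases before it. Bax held 2 GC boxes and a palindromic stretch in which ACGTG matched on both strands, beginning 9 bases before the start. Among 32841 windows of the same length before RefSeq starts, 32.7% held the GC box, 4.65% the NF-kB letters, 16.6% ACGTG, 12.4% TATAAA, 33.9% CCAAT, 6.75% the AP-1 motif, 7.02% the STAT motif and 17.8% TGACG. The Mcl1 window was the richest in bases G and C among the 4, at 64.4%, against 47.6% for Bcl2l1, 54% for Bax, 50.8% for Mlkl and a median of 52.4% over all windows. It also held 26 CpG dinucleotides, against 12 for Bcl2l1, 14 for Bax, 5 for Mlkl and a median of 6. A match is only a match of letters, and its absence says nothing about a factor.

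Bcl2l1, at 2:152780668-152831728 on the minus strand, had the most counts of the 9 genes in every kidney. The controls had 2909, 5540, 4336 and 6163 counts, set A 10117, 6912, 12607 and 7141, and set B 8943, 6043, 6282 and 5161. The mean was 153.0 ± 13.3 CPM (counts scaled to library size as counts per 1000000; SD, n = 4) in controls, 331.2 ± 68.3 for set A and 328.8 ± 37.6 for set B. The highest control stood at 167.3 CPM and the lowest ischemic kidney at 277.8 CPM, so neither set overlapped the controls. Lack of overlap with the controls was seen for 28.2% of all genes tested in set A and 26.7% in set B. Bcl2l1 rose by 1.11 on the log2 scale in set A (SE 0.14, edgeR adjusted p = 8.36e-06), 2.16-fold, and by 1.10 in set B (SE 0.14, adjusted p = 9.71e-06), 2.15-fold. The two-sided exact permutation test gave p = 0.0286 in both sets, the smallest value that 4 kidneys against 4 allow, and one that any lack of overlap gives. As the RNA came from whole kidney pieces, a change in the share of a cell type and a change in RNA per cell cannot be told apart, here or below.

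Mcl1, at 3:95658788-95663176 on the plus strand, encodes a short-lived guardian of the mitochondrial membrane and moved in the same direction. Its counts were 850, 1847, 956 and 1750 in controls, 2480, 1588, 3524 and 1170 in set A, and 2214, 1105, 1658 and 705 in set B. The mean was 42.9 ± 4.99 CPM (SD, n = 4) in controls, 73.7 ± 5.30 for set A and 67.4 ± 15.6 for set B. All set A kidneys, from 68.0 to 78.7 CPM, lay above the highest control at 48.0 CPM, but set B replicate 4, the library with the lowest total, was among the controls at 44.8 CPM. Mcl1 rose by 0.78 on the log2 scale in set A (SE 0.19, edgeR adjusted p = 0.00480), 1.72-fold, and by 0.65 in set B (SE 0.19, adjusted p = 0.0168), 1.57-fold. The exact permutation p was 0.0286 for set A and 0.0857 for set B. In set B the call was lost without control replicate 3 (edgeR adjusted p = 0.0654), without set B replicate 1 (0.0564) and without set B replicate 3 (0.0722). Whether the change of Mcl1 differed from that of Bcl2l1 was not tested.

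**Figure D1:**
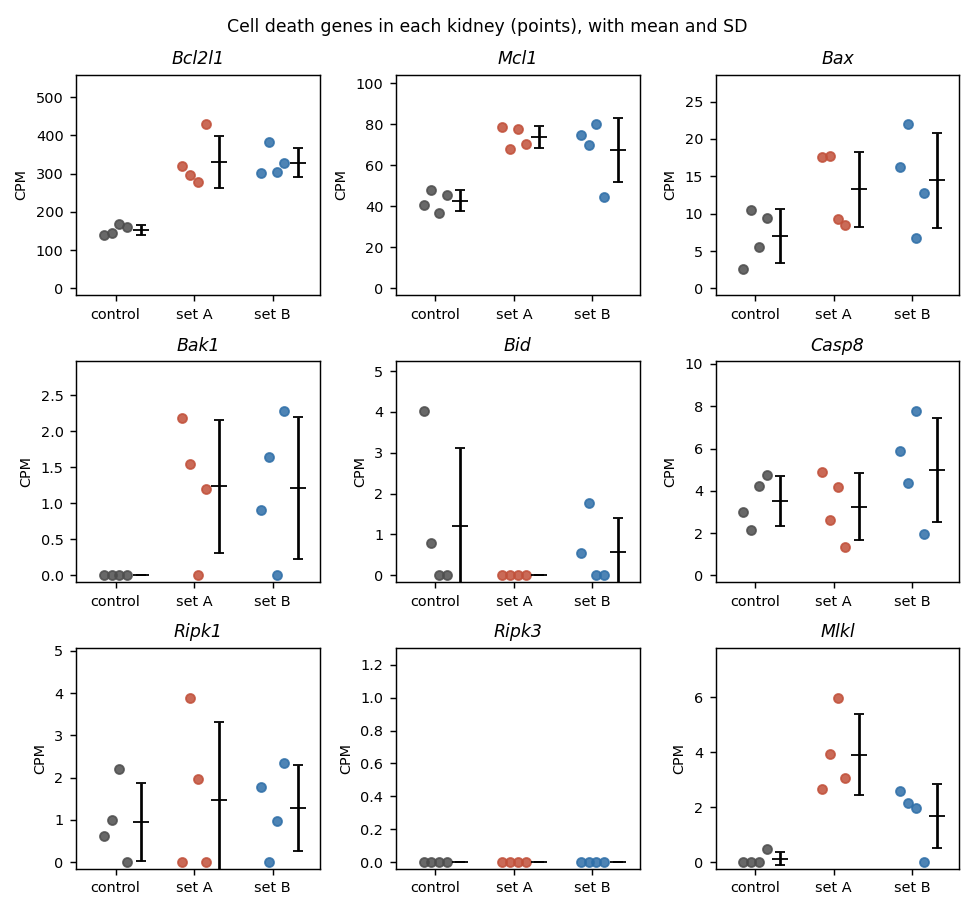
Level of each of the 9 genes in CPM (y axis) for control, set A and set B (x axis), 1 point per kidney and 4 per group, with the mean (dash) and SD (bar, cut at the axis where it would fall below it). Both ischemic sets lie above the controls for Bcl2l1, 1 set B kidney lies among the controls for Mcl1, and Bak1, Bid, Ripk1 and Mlkl have kidneys at 0 beside kidneys with counts in the same group.

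Bax, the cytosolic effector that moves to mitochondria when activated, lies at 7:45461697-45466898 on the minus strand. It had 54, 402, 145 and 362 counts in controls, 553, 413, 422 and 140 in set A, and 482, 348, 140 and 202 in set B. The means were 7.02 ± 3.62 CPM (SD, n = 4) in controls, 13.2 ± 5.06 for set A and 14.5 ± 6.38 for set B. The groups overlapped: controls ranged from 2.59 to 10.5 CPM, set A from 8.43 to 17.7 and set B from 6.77 to 22. The log2 difference from controls was 0.91 in set A (SE 0.47, edgeR adjusted p = 0.205) and 1.04 in set B (SE 0.47, adjusted p = 0.136), so neither passed. Their 95% intervals, from -0.02 to 1.84 for set A and from 0.11 to 1.96 for set B, include a rise of the size measured for Bcl2l1. The exact permutation p was 0.171 and 0.114. Bax shares 192 bases of exon with Gm45808 on its own strand, a gene with no row in the table used.

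Bak1, the effector that resides in the outer mitochondrial membrane, lies at 17:27019810-27029009 on the minus strand. It had 0 counts in all 4 controls, 69, 36, 0 and 20 in set A, and 27, 26, 0 and 36 in set B. Of the 8 ischemic kidneys, 6 thus had counts, and replicate 3 of each set was at 0 like the controls. Against a floor of 3 counts per library in the controls, the mean of Bak1 in set A, 1.23 ± 0.919 CPM (SD, n = 4), was higher by at least 11.9-fold, and in set B, with a mean of 1.21 ± 0.983, the bound was 11.6-fold. The edgeR adjusted p was 0.0425 for set A and 0.0423 for set B, while the exact permutation p was 0.143 in both. The call held in 2 of the 12 fits that left out 1 kidney, those without a replicate 3 of set A or set B, where the adjusted p was 0.0363 and 0.0356 for set A and 0.0361 and 0.0351 for set B. Without any other kidney it ran from 0.0525 to 0.0951 for set A and from 0.0564 to 0.0961 for set B, and with limma-trend it was 0.0886 and 0.0899. Bak1 shares 614 bases of exon with Ggnbp1 on the opposite strand, a gene with 0 counts in the table.

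Bid, the activator that caspase 8 cleaves, lies at 6:120891930-120916853 on the minus strand and had few counts. The controls had 84, 30, 0 and 0 counts, set A had 0 in all 4 kidneys, and set B had 16, 28, 0 and 0. Its mean was 1.20 ± 1.92 CPM (SD, n = 4) in controls and 0.578 ± 0.835 in set B. Against the floor of 3 counts per library in set A, the control mean was at least 10.2-fold higher, with an edgeR adjusted p of 0.0895 that missed the threshold. That bound rested on control replicate 1, the kidney with 84 counts: without it the control mean was 0.260 CPM, the bound was 2.21-fold and the adjusted p was 0.230. The permutation test gave an exact p of 0.429 for set A and 0.714 for set B, and 2 of the 4 controls were themselves at 0. In set B the edgeR adjusted p was 0.855. Bid shares 628 bases of exon with Bcl2l13 on the opposite strand, and the strand setting of the counting is not given in the sources used here.

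Casp8, at 1:58795374-58847503 on the plus strand, encodes the protease that starts apoptosis below death receptors and restrains necroptosis. It had counts in all kidneys: 62, 83, 109 and 182 in controls, 154, 61, 189 and 22 in set A, and 174, 69, 161 and 31 in set B. The means were 3.52 ± 1.18 CPM (SD, n = 4) in controls, 3.25 ± 1.60 for set A and 5.0 ± 2.46 for set B. The 3 groups overlapped, with replicate 4 the lowest kidney of both ischemic sets, at 1.33 CPM for set A and 1.97 CPM for set B. The log2 difference was -0.11 in set A (SE 0.74, 95% interval -1.56 to 1.33, edgeR adjusted p = 0.957) and 0.50 in set B (SE 0.74, interval -0.94 to 1.95, adjusted p = 0.735). Changes of about the size seen for Bcl2l1 lie within both intervals, so a difference of that size was not excluded for Casp8.

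Ripk1, at 13:34002363-34037147 on the plus strand, encodes the kinase and scaffold that sits between survival, apoptosis and necroptosis. Its counts were 13, 38, 57 and 0 in controls, 0, 91, 89 and 0 in set A, and 53, 0, 20 and 37 in set B. Each group thus had kidneys at 0 and kidneys with at least 20 counts. The means were 0.953 ± 0.926 CPM (SD, n = 4) in controls, 1.46 ± 1.87 for set A and 1.28 ± 1.02 for set B. Neither set differed beyond this spread, with a log2 difference of 0.62 in set A (SE 2.0, edgeR adjusted p = 0.904) and 0.42 in set B (SE 2.0, adjusted p = 0.933). Ripk1 shares 241 bases of exon with Serpinb6a on the opposite strand and 511 with Gm17084 on its own strand, and the latter has no row in the table used.

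Ripk3, the kinase that phosphorylates MLKL, lies at 14:55784995-55788865 on the minus strand. It had 0 counts in all 12 kidneys and was not tested. A floor of 3 counts corresponds to between 0.0661 and 0.190 CPM in these libraries, for counting error only. A count of 0 in this table does not show that a gene is silent. B2m, a gene of nearly all nucleated cells, was at 0 in 8 kidneys and reached at most 43 counts, and Gusb, a lysosomal enzyme often used as a reference, was at 0 in 5 kidneys, while Hprt had 1521 to 3513 counts throughout.

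Mlkl, the executioner of necroptosis, lies at 8:111311797-111338177 on the minus strand. It had 0, 0, 0 and 18 counts in controls, 84, 92, 272 and 51 in set A, and 77, 34, 41 and 0 in set B. The means were 0.118 ± 0.235 CPM (SD, n = 4) in controls, 3.92 ± 1.48 for set A and 1.68 ± 1.15 for set B. All 4 set A kidneys lay above all controls, and 3 of the 4 set B kidneys did. The log2 difference from controls was 4.96 in set A (SE 1.59, edgeR adjusted p = 0.0571) and 3.74 in set B (SE 1.59, adjusted p = 0.134), so Mlkl was not called in either, with unadjusted p of 0.0132 and 0.0420 in that fit. The exact permutation p was 0.0286 for set A and 0.143 for set B. Among all genes tested, 28.2% did not overlap between set A and controls and 26.7% between set B and controls.

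The Mlkl result turned on the method and on a pair of kidneys. DESeq2 called it higher in both sets (adjusted p = 0.00384 and 0.0396), and limma-trend called it in set A (0.00561) and not in set B (0.0882). With only the 2 groups compared in the edgeR fit, its adjusted p was 0.0365 for set A and 0.270 for set B. Without control replicate 4, the only control with counts, edgeR called it in set A (adjusted p = 0.00617) and in set B (0.0117). Leaving out that kidney removes the only control value above 0, so these calls carry no further weight. With the other 3 controls at 0, the size of the difference is then only a bound against a floor of 3 counts per library: the set A mean was at least 34.8-fold higher and the set B mean at least 14.9-fold, and the fitted log2 values of 9.67 and 8.45, against 4.96 and 3.74 with all controls, are no measure of it. Without set B replicate 4, edgeR called Mlkl in set A (adjusted p = 0.0251) and not in set B (0.0655). Mlkl is also expressed by macrophages. The summed level of the 6 macrophage and monocyte markers in the table ran from 43.6 to 66.7 CPM in controls, 10.1 to 26.9 for set A and 13.2 to 35.6 for set B. Of the 5 of them that were tested, 1, the receptor gene Csf1r, was called, and it was lower in both sets. In controls the sum was mostly Csf1r. The log2 differences of Ptprc, Cd68, Itgam and Fcgr1 were 0.38, -0.01, 1.37 and 5.32 in set A and 0.57, 1.89, 2.32 and 5.01 in set B, and none of the 4 was called by edgeR, DESeq2 or limma-trend. The part of these cells in the Mlkl values was not tested.

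**Figure D2:**
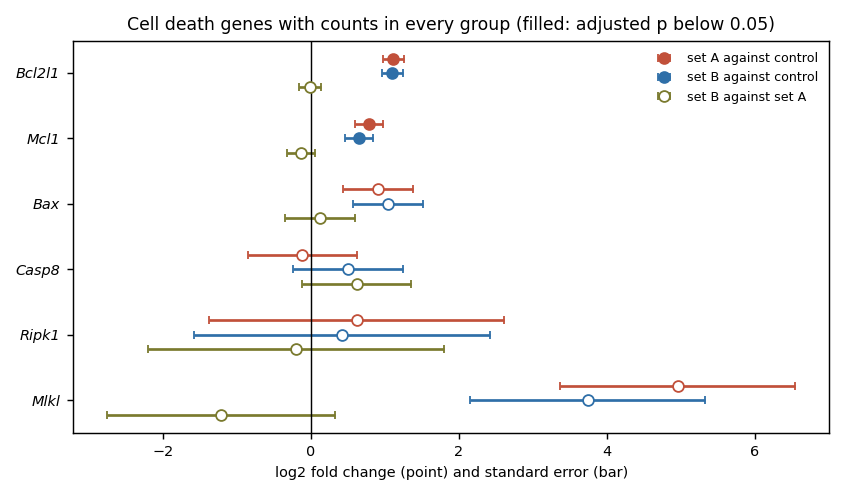
Fitted log2 fold change (x axis, point) with its standard error (bar) for the 6 genes with counts in all 3 groups and a standard error (y axis), for each set against controls and for set B against set A. Filled points, for Bcl2l1 and Mcl1 in both sets, have an adjusted p below 0.05, and the bars of Ripk1 and Mlkl are the widest.

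No member was called between the ischemic sets by edgeR, DESeq2 or limma-trend, and 1 member, Bid, had an unadjusted p below 0.05 in edgeR. Over all genes, 1 of the 11664 genes tested, or 0.00857%, was called by edgeR, and 587 had an unadjusted p below that level. The gene called, named after its values were seen, was Slc5a12, a sodium-coupled lactate transporter of the proximal tubule, whose level in set B exceeded that in set A by 1.85 on the log2 scale (SE 0.27, edgeR adjusted p = 0.0328). DESeq2 called it too, among 44 genes, and the call was lost with limma-trend (adjusted p = 0.0607), in the edgeR fit of the 2 sets alone (0.696) and in 10 of 12 edgeR fits without 1 kidney (up to 0.336), all but those without set B replicate 2 or 4. The log2 difference was between 1.56 and 2.03 in all of these fits. Slc5a12 was called lower than in controls in both sets. Bcl2l1 differed by -0.01 on the log2 scale, set B minus set A, with a 95% interval from -0.29 to 0.27, and Mcl1 by -0.13 with an interval from -0.50 to 0.24. For Bax the difference was 0.13 (interval -0.80 to 1.05), for Casp8 0.62 (interval -0.83 to 2.07) and for Ripk1 -0.20 (interval -4.11 to 3.72). The intervals of Bcl2l1 and Mcl1 exclude a doubling in either direction. Those of Bax and Casp8 exclude a doubling in set A over set B and not the reverse, and that of Ripk1 excludes neither. Mlkl was the only member whose values did not overlap between the sets, since the highest set B kidney had 2.59 CPM and the lowest set A kidney 2.67 CPM, a gap smaller than the spread within either set. Over all genes tested, 2.61% did not overlap between the sets. The exact permutation p for Mlkl was 0.0286, but the edgeR fit gave a log2 difference of -1.22 (SE 1.54, interval -4.23 to 1.80, adjusted p = 0.9997). Bid, at 0 throughout set A, had in set B a mean at least 4.91-fold the set A floor, or 1.53-fold without set B replicate 2, with an edgeR adjusted p of 0.962 and an unadjusted p of 0.0358.

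Ratios between genes of 1 kidney do not depend on how libraries are scaled, and they are given as a description without a test. There were 1.86, 7.26, 3.34 and 5.87 counts of Bax for every 100 counts of Bcl2l1 in controls, 5.47, 5.98, 3.35 and 1.96 in set A, and 5.39, 5.76, 2.23 and 3.91 in set B. The group means, 4.58 ± 2.43 (SD, n = 4), 4.19 ± 1.87 and 4.32 ± 1.61, lay closer together than the kidneys within any group. Bax counts per 100 counts of Mcl1 averaged 16.0 ± 7.05 in controls, 18.1 ± 7.19 for set A and 22.6 ± 10.3 for set B, again with overlap of all groups. Mcl1 per 100 counts of Bcl2l1, a ratio added after the values were seen, averaged 28.3 ± 4.67, 23.0 ± 4.85 and 20.8 ± 5.89. Its groups overlapped too, and the lowest kidneys were replicate 4 of set B at 13.7 and replicate 4 of set A at 16.4. No ratio to Ripk3 could be formed, and Casp8 and Ripk1 both had counts in 8 kidneys.

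**Figure D3:**
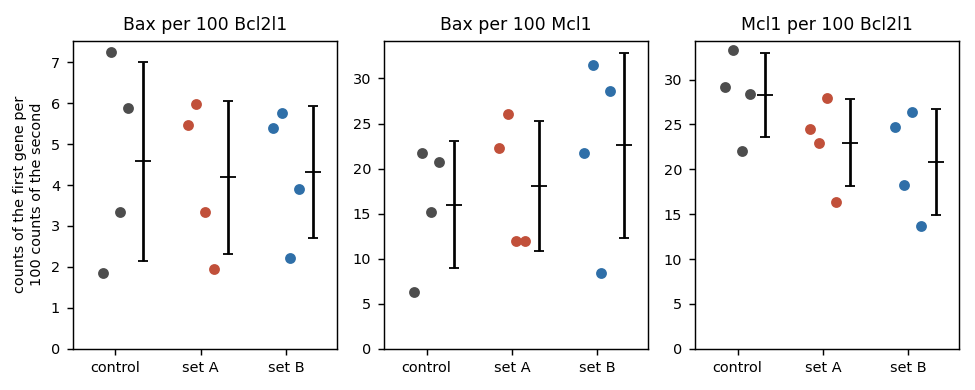
Counts of one gene per 100 counts of another within the same kidney (y axis) for Bax to Bcl2l1, Bax to Mcl1 and Mcl1 to Bcl2l1, by group (x axis), with 4 kidneys per group as points, the mean as a dash and the SD as a bar. All 3 groups overlap in each panel.

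Levels of different genes can be compared only per length, as CPM per kilobase of annotated exon. On that scale the order in controls was Bcl2l1 at 33.4 ± 2.90 (SD, n = 4), Mcl1 at 12.5 ± 1.46, Bax at 4.46 ± 2.30, Casp8 at 1.22 ± 0.407, Bid at 0.339 ± 0.541, Ripk1 at 0.114 ± 0.111 and Mlkl at 0.0511 ± 0.102. The lowest control for Bax and the highest for Casp8 met at 1.64 CPM per kilobase, and Bid, Ripk1 and Mlkl overlapped at 0. The order of these last 3 rested on single kidneys: without control replicate 1, Bid was at 0.0732 and below Ripk1 at 0.127, and without control replicate 3, Ripk1 was at 0.0644 and below Mlkl at 0.0681 CPM per kilobase. In set A the level of Mlkl, 1.70 ± 0.643 CPM per kilobase, was above that of Casp8, 1.12 ± 0.551, with overlap between them. In set B the order of that pair was the reverse, at 0.730 ± 0.500 for Mlkl and 1.73 ± 0.849 for Casp8, again with overlap. Bcl2l1, Mcl1 and Bax kept the first 3 places in both sets. In mean CPM per kilobase the antiapoptotic pair exceeded the other 7 members combined in all 3 groups.

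The genes whose profiles over the 12 kidneys lay closest to each member were found by the root mean square difference of log2 CPM, each profile centred on its control mean. For Bcl2l1 these were Ezr and Malat1, at 0.131 and 0.137 log2 units, and for Mcl1 they were Fkbp1a and Ilk, both at 0.162. For Bax they were Angel1 and Sf3b4, at 0.408 and 0.465, and for Casp8 Palld and Uba6, at 0.357 and 0.401. The members with kidneys at 0 lay further from their nearest genes: the nearest genes to Bak1 were Ppl and Asns at 1.42 and 1.46, those to Mlkl Dtl and Hspb1 at 1.24 and 1.38, those to Bid Osr2 and Slc35f2 at 1.49 and 1.59, and those to Ripk1 Foxd2 and Gspt2 at 1.65 and 1.66. Among the members themselves, Bcl2l1 and Mcl1 were the closest pair, at 0.445, and they were also the members with the most counts. The median distance over all 8512 genes compared was 1.11 from Bcl2l1 and 0.894 from Mcl1. All these profiles share the same libraries and depths.

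By role, 70 other genes of apoptosis, necroptosis and pyroptosis were listed. Of these 68 were in the table, 15 had no count in any kidney and 40 were tested. In set A 2 were called higher and 3 lower, or 12.5% of those tested, and in set B 3 higher and 3 lower, or 15%. Both shares are below those of all genes tested given above. The median log2 fold change of the 40 was 0.26 for set A and 0.09 for set B.

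Among the other antiapoptotic members of the BCL2 family, neither Bcl2 nor Bcl2l2, the 2 of 6 that were tested, was called by edgeR, DESeq2 or limma-trend, and 0 of them had an unadjusted p below 0.05. The 3 near-identical copies Bcl2a1a, Bcl2a1b and Bcl2a1d had no counts, and reads shared between copies may have been discarded by the counting. Of the 9 genes of the BH3-only class, whose products trigger or modulate the family, 5 were tested and 2 fell in both sets. Bnip3, a hypoxia-inducible gene of mitochondrial death and mitophagy, went from 32.3 ± 2.18 CPM (SD, n = 4) in controls to 10.2 ± 5.08 for set A and 9.99 ± 1.57 for set B. It fell by 1.66 on the log2 scale in set A (SE 0.32, edgeR adjusted p = 0.000839) and by 1.69 in set B (SE 0.32, adjusted p = 0.000735). Its relative Bnip3l, a mitophagy receptor, fell by 0.73 in set A (SE 0.16, edgeR adjusted p = 0.00261) and by 0.51 in set B (SE 0.16, adjusted p = 0.0286). The set B call of Bnip3l was lost without control replicate 2 or 4 or without set B replicate 2 or 3, with adjusted p from 0.0689 to 0.0816.

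Of the initiator caspases and apoptosome genes, all 6 were tested and none was called by edgeR, DESeq2 or limma-trend, and edgeR gave 0 of them for set A and 1 for set B an unadjusted p below 0.05. Of the 6 executioner caspases and their substrates, 4 were tested, and 1, Dffa, the inhibitor of the apoptotic nuclease, rose in set B by 0.94 on the log2 scale (SE 0.26, edgeR adjusted p = 0.0125), with a difference of 0.58 in set A that did not pass (adjusted p = 0.128). Among the 4 inhibitors of apoptosis, Birc6, a giant ubiquitin ligase, fell by 0.41 in set A (SE 0.10, edgeR adjusted p = 0.00583) and by 0.34 in set B (SE 0.10, adjusted p = 0.0203), from 1041 ± 59.8 CPM in controls to 784.1 ± 71.7 and 823.0 ± 35.1. Its set B call was lost without control replicate 2 or set B replicate 3, with adjusted p of 0.0515 to 0.0531. Of the 8 death receptors and ligands, 4 were tested, and Tnfrsf12a, the receptor of the cytokine TWEAK, rose in set B by 2.41 (SE 0.81, edgeR adjusted p = 0.0476). In set A its log2 difference was 2.38 (SE 0.81) and just missed the threshold, with an edgeR adjusted p of 0.0513, while DESeq2 called it there and limma-trend did not. The set B call of Tnfrsf12a held in 4 of the 12 fits without 1 kidney and reached an adjusted p of 0.169, and in set A it was called in 3 of them, those without set A replicate 3 or 4 or set B replicate 4.

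None of the 7 tested adaptors and regulators of death receptors was called by edgeR, which gave 2 of them for set A and 1 for set B an unadjusted p below 0.05. DESeq2 called 2 in set A, Tnfaip3 and Traf2, and 1 in set B, Rnf31, and limma-trend called Tnfaip3 in both. Of the 9 partners of necroptosis, 7 were tested. Hsp90aa1, a chaperone that stabilises RIPK1, RIPK3 and MLKL, rose by 0.45 in set A (SE 0.14, edgeR adjusted p = 0.0234) and by 0.58 in set B (SE 0.14, adjusted p = 0.00443), from 153.0 ± 20.0 CPM (SD, n = 4) to 209.2 ± 17.7 and 228.0 ± 33.8. Chmp2a, a membrane-remodelling ESCRT-III subunit, rose by 0.63 in set A (SE 0.19, edgeR adjusted p = 0.0201), with a difference of 0.42 in set B that did not pass (adjusted p = 0.125). The set A calls were lost without 1 of 3 kidneys each: control replicate 2 or 4 or set A replicate 2 for Hsp90aa1 (adjusted p up to 0.0829), and control replicate 3 or 4 or set A replicate 3 for Chmp2a (up to 0.0629). Of the 9 inflammatory caspases and pyroptosis genes, 8 were in the table, 5 of them had no count in any kidney, and 0 passed the filter on low counts used for edgeR and limma-trend. DESeq2, run without that filter, fitted the other 3 and called 0 in each comparison, with 0 at an unadjusted p below 0.05. No listed gene was called between the sets by edgeR, DESeq2 or limma-trend, and 1 had an unadjusted p below 0.05 in edgeR.

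**Figure D4:**
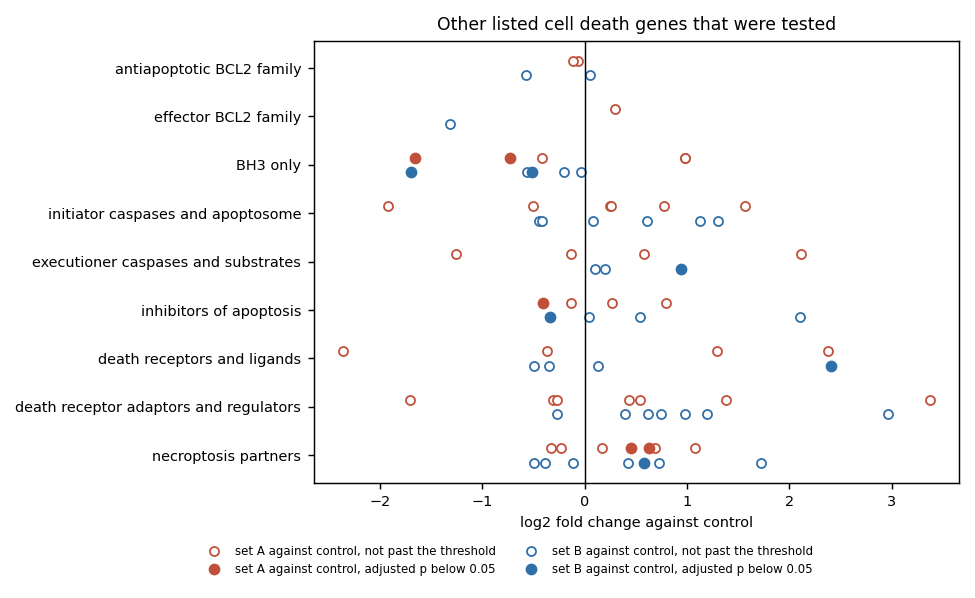
Log2 fold change against controls (x axis) of the listed genes that were tested, by role (y axis), for set A and set B, 1 point per gene, with a gene left out of a set whose 4 kidneys were all at 0. Filled points have an adjusted p below 0.05: 2 higher and 3 lower in set A, and 3 higher and 3 lower in set B.

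The libraries held 15367342 to 44793350 counts. Markers of several cell types differed between ischemic and control kidneys, and the cell types in which the 9 genes changed were not measured. Surgery to place the clamp and removal of the other kidney came before ischemia, so comparisons with controls cannot tell them apart. The 7 proximal tubule markers were lower in both sets, with a summed level of 6683 to 7451 CPM in controls, 702.7 to 1280 for set A and 430.4 to 1385 for set B. The 4 markers of injured tubule were higher in both, at 0.0386 to 0.240, 67.1 to 137.1 and 55.7 to 130.3 CPM. Of the 6 thick limb and distal markers 3 were lower for set A and 2 for set B, of the 4 podocyte markers 2 were higher in both sets, of the 3 tested fibroblast and pericyte markers 2 were higher in both sets, and of the 4 tested endothelial markers 0 were called by edgeR, DESeq2 or limma-trend, and edgeR gave 2 for set A and 0 for set B an unadjusted p below 0.05. Neutrophil markers summed to at most 2.67 CPM, and S100a8 was at 0 throughout. Of the 6 lymphocyte markers 5 were at 0 throughout, and the remaining one, Cd3e, was at 0 in all ischemic kidneys and called lower in both sets (edgeR adjusted p = 0.0412 and 0.0472). It entered the test through the controls alone, at 0.695 to 4.73 CPM, so the call carries no further weight. The only red cell marker tested, Alas2, was at 0 in all set B kidneys and called lower there (edgeR adjusted p = 0.0266). The part of these shifts in the values of the 9 genes was not tested.

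Counts tended to be either 0 or well above it. Per kidney, 464 to 1136 genes had 1 to 19 counts, while 11846 to 13304 of the 23420 genes had 0. Among the genes tested, 29.7% had in some group a kidney at 0 beside one with at least 20 counts, and 4 of the 8 tested members did so, namely Bak1, Bid, Ripk1 and Mlkl. The results of Bcl2l1, Mcl1, Bax and Casp8, which had counts in all kidneys, do not involve a 0. The source of the zeros was not tested.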

How the data were processed

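Total RNA of 12 mouse kidneys was made into libraries with the TruSeq stranded mRNA kit and sequenced in single reads of 100 bases. The authors aligned reads with STAR to mm10 and counted them per gene with HTSeq, per the submitters' processing notes, and deposited raw counts for 23420 genes. Versions, annotation release, treatment of duplicate reads and strand setting are not given in the sources used here. The ischemic kidneys are described as coming from 4 mice per condition. Whether the control kidneys came from further mice is not given in the sources used here, and p-values measure the spread between these kidneys.

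From the deposited counts, edgeR 4.0.16 (R 4.3.3; filterByExpr with a minimum count of 10, TMM scaling, quasi-likelihood F-test, two-sided) was fitted to all 12 kidneys, which left 11664 genes, with Benjamini-Hochberg adjustment over all of them and a threshold of 0.05. Intervals are 1.96 standard errors on either side. Both ischemic sets share the same controls. CPM was computed with TMM-scaled library sizes. Two-sided exact permutation tests of mean CPM (scipy 1.17.1) accompany the 9 genes. Gene positions and exon lengths are from GENCODE M21. DESeq2 1.42.0, limma 3.58.1 (prior count 2), other filters and scalings, fits of 2 groups, a replicate block and leaving out each kidney were tried, and the code was tested on simulated data.

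The 9 genes are always named. From each list of other genes up to 4 called against controls with the largest mean absolute change are named, and for each member the 2 most similar profiles among genes whose mean log2 CPM was 1 or more. Tnfaip3, Traf2, Rnf31, Bcl2, Bcl2l2, the Bcl2a1 copies, B2m, Gusb, Hprt and the markers are named outside this rule and after their values were seen. The members and lists were chosen with earlier results of these data known. Replicate numbers were checked for pairing: over 12 pairs of kidneys with the same number in different groups, the correlation of their deviations from group means ran from -0.06 to 0.05. Over the 36 other pairs it ran from -0.06 to 0.08, so no pairing by number was seen. Whether this check would detect kidneys of 1 mouse was not tested, so pairing is not excluded. Protein sequences were not used here.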

Additional observations from a re-analysis of the deposited data

Results flagged for a closer look

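Of 22 groups of 4 kidneys examined, 1 held a kidney far from the others: Mlkl was at 0.470 CPM (18 counts) in control replicate 4 and at 0 in the other 3 controls. With the other 3 tied at 0, any count in the fourth kidney would have been marked out, so the usual chance rate of about 1 group in 20 does not apply to it. Without that kidney Mlkl was called higher in both ischemic sets by edgeR, with the adjusted p given in the report. Leaving it out puts all remaining controls at 0, so those calls carry no further weight.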

How the results depend on the processing

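Bcl2l1 in both sets and Mcl1 in set A kept their call under all 7 alternatives and all 12 fits without 1 kidney, and Mcl1 in set B under all 7 and 9 of 12. The calls of Bak1 held in 4 of 6 alternatives in each set: they were lost with limma-trend and with the replicate number as a block (adjusted p = 0.104 in both sets), and the fit of 2 groups gave no value for it. The replicate block left 2 members called in each set, and whether the numbers pair the kidneys is not known. With 1 kidney left out, 2 to 3 members were called for set A and 1 to 3 for set B, with 1 without control replicate 3 and without set B replicate 1. Of the other listed genes, DESeq2 called 8 in set A and leaving out a kidney gave 3 to 6 there (3 without control replicate 4) and 3 to 7 in set B (3 without set B replicate 3). Between the sets, the count over all genes was 44 with DESeq2, 6 with no filter, 0 with limma-trend (683 unadjusted), 0 in the fit of 2 groups (336 unadjusted) and 0 to 7 without 1 kidney (7 without set B replicate 4). Log2 differences that changed sign were all uncalled. Ripk1 in set A was -0.37 with limma-trend and -0.089 with the block, and between the sets it was 0.74 and 2.42. Bcl2l1 between the sets was 0.0037 and 0.0011. The largest value of Ripk1 in set B over the alternatives was 2.33, and it was not called. Without 1 kidney, Ripk1 ran from -0.53 to 1.42 for set A, -0.049 to 1.22 for set B and -0.67 to 0.95 between the sets, Casp8 from -0.35 to 0.12 in set A, and Bid from -2.70 to 1.14 in set B. Between the sets, Bcl2l1 ran from -0.10 to 0.14, Mcl1 from -0.22 to 0.023, Bax from -0.15 to 0.36 and Bak1 from -0.53 to 0.40. Another scaling moved the median of all genes by at most 0.03. The causes were not tested. Beside the depth, Bak1 had 0 counts in the deepest library, set A replicate 3, and 36 in the shallowest, set B replicate 4, and the part of depth in the zeros was not tested.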
